A study of Mus musculus with 2 samples.

Results

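The genes described here act in the G2 phase of the cell cycle and in mitosis, the stage at which a cell separates its copied chromosomes and divides. The set holds 55 genes named by symbol, from the cyclins and kinases that start mitosis to the motors that pull chromosomes apart. A gene counted as measured where the array annotation gave at least 1 probe set that symbol and no other. This held for 53 of the 55 genes, through 54 probe sets, out of 19938 genes measured in all. Kifc1, whose probe set carried several symbols, and Ccnb1 were not analysed here.

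Expression was compared between mouse embryonic fibroblasts (MEFs, connective-tissue cells cultured from embryos) of MatDup.dist7 and of PatDup.dist7 genotype. The fibroblasts were taken at 13.5 days post coitum and grown in the same serum-containing medium, per the labels. MatDup.dist7 cells carry a distal chromosome 7 segment that is maternal on both homologues, and PatDup.dist7 cells carry it as paternal on both. Total RNA of each genotype was hybridised to 1 Affymetrix array, so there was 1 sample per group. The labels state neither the number of embryos behind a culture nor its passage, and the design has no culture with 1 maternal and 1 paternal copy of the segment.

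Entry into mitosis is driven by Cdk1 bound to its cyclins and is helped by the Polo-like and Aurora kinases. The spindle checkpoint then holds back chromosome separation until every kinetochore, the protein structure on a centromere, is attached to microtubules, after which the anaphase-promoting complex (APC/C) marks securin and the cyclins for destruction. Transcripts of many of these genes are made mainly in late cell cycle, and in a mixed culture their level follows the share of cells that are dividing. Their promoters are known for CCAAT boxes, bound by the factor NF-Y, and for the cell cycle genes homology region (CHR), through which the MuvB complex represses them in resting cells and, with B-Myb and FoxM1, activates them in dividing ones.

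The promoters of the 8 measured genes with the largest differences among those holding both kinds of letters are shown because these letters are what most of the set shares beyond function. They are given 5′ to 3′ on the strand of the gene, from RefSeq on the mouse build GRCm38.p6. Capitals mark CCAAT (or ATTGG on the opposite strand) and TTTGAA or TTCGAA (or TTCAAA on the opposite strand), the letters used here for the CHR. Each run starts at least 100 bases before the annotated start of the gene.
Cenpf (chr1:189688079-189688228, minus strand): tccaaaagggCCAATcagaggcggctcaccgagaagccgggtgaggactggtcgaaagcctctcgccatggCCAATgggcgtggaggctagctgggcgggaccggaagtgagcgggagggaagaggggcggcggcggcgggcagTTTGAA
Hmmr (chr11:40733424-40733619, minus strand): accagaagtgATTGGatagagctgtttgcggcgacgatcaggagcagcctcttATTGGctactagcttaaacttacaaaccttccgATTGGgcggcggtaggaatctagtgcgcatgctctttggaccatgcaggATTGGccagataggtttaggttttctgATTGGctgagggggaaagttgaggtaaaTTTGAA
Kif23 (chr9:61946792-61946899, minus strand): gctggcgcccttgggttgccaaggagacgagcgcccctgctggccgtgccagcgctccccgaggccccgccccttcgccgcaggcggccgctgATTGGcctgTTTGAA
Espl1 (chr15:102296193-102296292, plus strand): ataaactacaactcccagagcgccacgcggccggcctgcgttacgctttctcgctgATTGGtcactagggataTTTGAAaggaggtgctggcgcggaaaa
Cdca8 (chr4:124936895-124937017, minus strand): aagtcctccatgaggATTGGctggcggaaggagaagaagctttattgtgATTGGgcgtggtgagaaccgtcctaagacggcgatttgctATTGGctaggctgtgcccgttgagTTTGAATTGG
Racgap1 (chr15:99651646-99651756, minus strand): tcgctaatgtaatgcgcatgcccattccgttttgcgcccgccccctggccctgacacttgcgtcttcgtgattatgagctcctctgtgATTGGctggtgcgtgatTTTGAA
Plk1 (chr7:122159335-122159434, plus strand): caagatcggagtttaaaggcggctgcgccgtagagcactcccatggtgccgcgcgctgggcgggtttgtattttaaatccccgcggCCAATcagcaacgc
Aurka (chr2:172370571-172370670, minus strand): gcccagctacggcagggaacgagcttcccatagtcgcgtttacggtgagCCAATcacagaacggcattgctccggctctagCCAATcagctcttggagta
In Cenpf, Hmmr, Kif23, Cdca8 and Racgap1 the run ends with the last motif found within 30 bases after the start. In Plk1 and Aurka the CHR letters began 31 and 33 bases after the start and are not shown.

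Promoter windows of 250 bases before to 50 bases after the start were found for 46 of the 55 genes, in 49 windows because some genes have several. Ccna2, Cdc25c, Aurkb, Incenp, Spc24, Kif20a, Tpx2, Foxm1 and Smc4 had none. CCAAT in either direction was present in 37 of the 49 windows (75.5%), against 38.2% of 21263 windows of all protein-coding genes. At least 2 CCAAT matches were present in 24 of the windows (49.0%), against 12.8% of the protein-coding windows. CHR letters were present in 36 of the windows (73.5%), against 17.6%, and both motifs in 33 (67.3%), against 7.11%. The motifs overlapped at 1 place, in Cdca8. The windows of the genes of the set were thus richer in these letters than those of protein-coding genes in general, and a match is a description of the sequence, not a measured binding site. Among the promoters shown, Hmmr held 5 CCAAT matches, the most of the 8, and 1 CHR match.

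Most of the set had a higher signal on the MatDup.dist7 array, by amounts mostly under 2-fold. Differences are given as log2(intensity + 16) in MatDup.dist7 minus PatDup.dist7, where 16 is a pseudocount that damps the differences of low signals. The median of the 53 genes was 0.44 (1.36-fold), the lowest was -1.17 and the highest was 1.27, against a median of 0.02 over all 19938 genes. Of the 53 genes, 40 (75.5%) were higher in MatDup.dist7, compared with 51.4% of all genes and 49.3% of the 12733 genes whose level on the higher array exceeded an intensity of 66.4, the median of all values. The other 13 genes (24.5%) were higher in PatDup.dist7, compared with 48.6% of all genes and 50.7% of those above this filter. At least 1.5-fold higher in MatDup.dist7 were 20 genes (37.7%), against 15.5% of all genes and 12.2% of those above this signal filter. At least 1.5-fold higher in PatDup.dist7 were 5 genes (9.43%), against 12.5% and 10.9%. After quantile normalisation of the arrays 15 genes passed 1.5-fold toward MatDup.dist7, against 10.7% of the genes above the filter. With each array centred on the median of all genes 17 did, against 10.1%. Toward PatDup.dist7 the count was 5 in both settings, against 11.8% and 13.4%. These rescaled counts are over all 53 genes, of which 42 lay above the filter, while the shares beside them cover only genes above it. As deposited, such genes passed 1.5-fold less often than all genes did. At least 2-fold higher in MatDup.dist7 were 5 genes (9.43%), against 4.47% of all genes and 2.74% of those above the filter, and 2-fold higher in PatDup.dist7 were 2 genes (3.77%), against 3.16% and 2.42%. The share at least 1.5-fold higher in PatDup.dist7 was thus near the background, and the share at least 1.5-fold higher in MatDup.dist7 was above it. With no replicate culture analysed here, none of these differences could be tested against the variation between cultures. Each array read RNA of a whole culture, in which fewer cells of a type and less RNA per cell cannot be told apart.

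**Figure D1:**
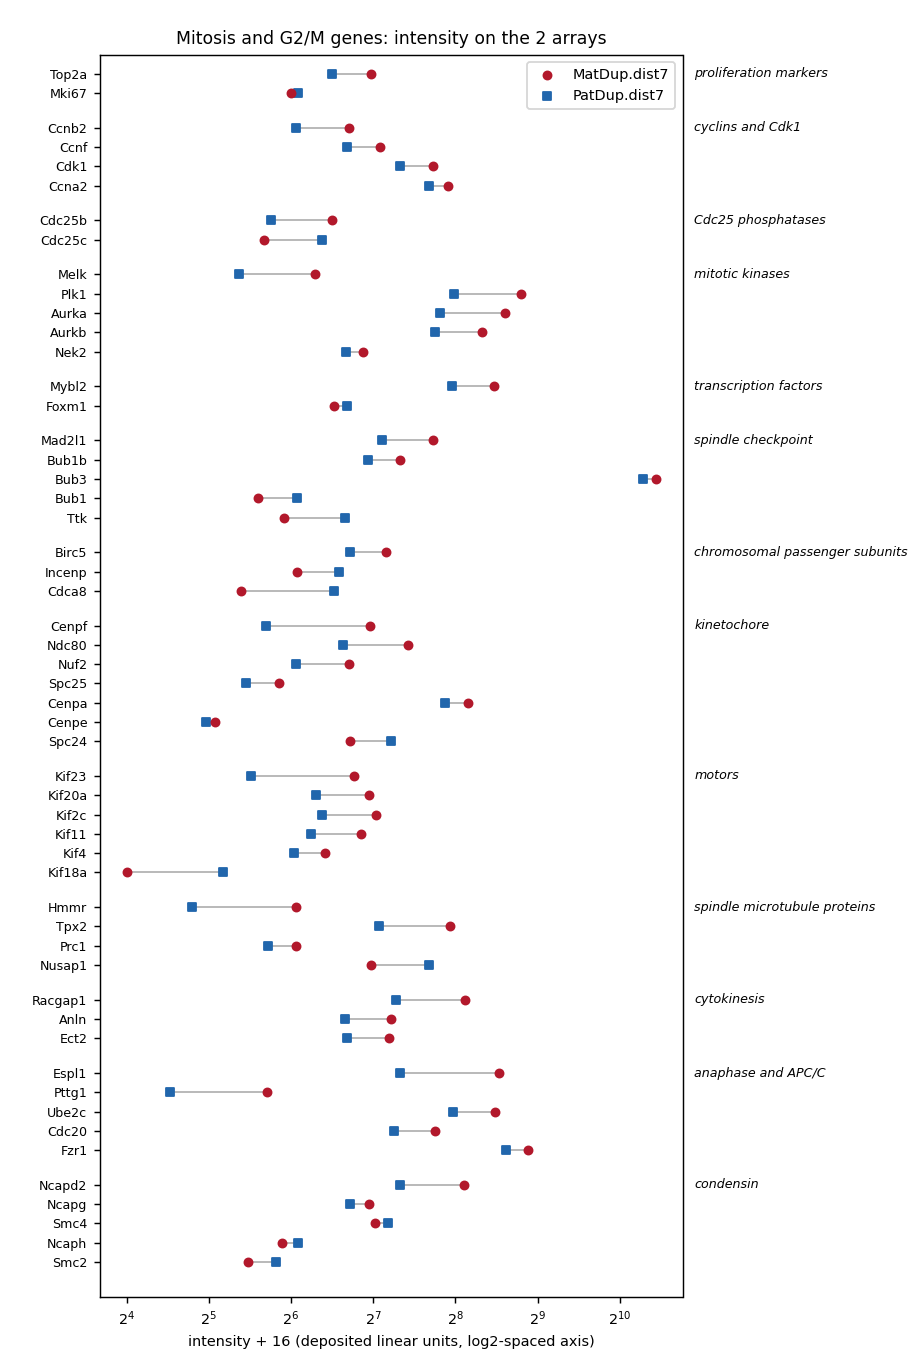
Intensity plus 16 (horizontal axis, log2-spaced, deposited linear units) of the 53 measured genes on the MatDup.dist7 array (red circles) and the PatDup.dist7 array (blue squares), 1 row per gene, grouped by role. The red circle lies to the right in 40 rows and to the left in 13 rows, among them Kif18a, Cdca8, Ttk, Cdc25c and Nusap1.

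In the role group of mitotic kinases, each of the 5 genes had its larger signal on the MatDup.dist7 array. The median difference was 0.79, and 3 genes passed 1.5-fold. The median was 0.68 over the 4 genes above the signal filter and 0.50 with a pseudocount of 64. Kinase genes placed in other role groups are not counted here. Among these, Ttk (-0.74) and Bub1 (-0.48), placed with the spindle checkpoint, were lower in MatDup.dist7. Cdk1, placed with the cyclins, was higher (0.40). Plk1, the Polo-like kinase that acts from mitotic entry to cytokinesis, gave intensities of 427 in MatDup.dist7 cells and 237 in PatDup.dist7 cells, a difference of 0.81. Aurka, the Aurora kinase of the spindle poles, had 372 in MatDup.dist7 cells and 209 in PatDup.dist7 cells (0.79). Melk, a kinase gene active in proliferating cells, had 62.6 in MatDup.dist7 cells and 25.4 in PatDup.dist7 cells (0.92) and lay under the signal filter. Within this role group, Plk1, Aurka and Melk were the genes past 1.5-fold. Aurkb, the kinase of the chromosomal passenger complex, had 304 in MatDup.dist7 cells and 199 in PatDup.dist7 cells (0.57), just inside that limit. Nek2, a centrosome kinase gene, had 102 in MatDup.dist7 cells and 85.4 in PatDup.dist7 cells (0.21).

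The cyclins and their kinase Cdk1 had smaller differences in the same direction, with a median of 0.40 over 4 measured genes. Ccnb2, a B-type cyclin, had 88.6 in MatDup.dist7 cells and 50.9 in PatDup.dist7 cells (0.64). Cdk1, the catalytic partner of the mitotic cyclins, had 196 in MatDup.dist7 cells and 144 in PatDup.dist7 cells (0.40). Ccnf, the F-box protein cyclin F, had 119 in MatDup.dist7 cells and 86.3 in PatDup.dist7 cells (0.40). Ccna2, the cyclin of S and G2 phase, had 225 in MatDup.dist7 cells and 189 in PatDup.dist7 cells (0.23). Ccnb2 alone of these genes passed 1.5-fold, and with quantile normalisation of the arrays none did.

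The Cdc25 phosphatases, which remove the inhibitory phosphates from Cdk1, differed in opposite directions. Cdc25b had 74.5 in MatDup.dist7 cells and 38.0 in PatDup.dist7 cells (0.75), while Cdc25c had 35.1 in MatDup.dist7 cells and 67.2 in PatDup.dist7 cells (-0.70). Both passed 1.5-fold, and their median of 0.02 became -0.05 with quantile normalisation and -0.03 with each array centred on its median.

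The general markers of dividing cells gave no common picture. Mki67, which encodes the Ki-67 antigen found in cycling cells, had 48.2 in MatDup.dist7 cells and 51.9 in PatDup.dist7 cells (-0.08). Top2a, the DNA topoisomerase that untangles sister chromosomes, was read by a pair of probe sets that disagreed in size. Of these, 1 had 168 in MatDup.dist7 cells and 134 in PatDup.dist7 cells (0.30), and the other had 51.5 in MatDup.dist7 cells and 14.0 in PatDup.dist7 cells (1.17), giving a gene mean of 0.73. By the probe set with the higher signal alone, Top2a was within 1.5-fold. The annotation names Top2a together with other symbols for 2 further probe sets, which were not used. The transcription factors of the programme had a median of 0.17. Mybl2, which encodes B-Myb, had 337 in MatDup.dist7 cells and 233 in PatDup.dist7 cells (0.50), and Foxm1 had 76.0 in MatDup.dist7 cells and 86.7 in PatDup.dist7 cells (-0.16). Neither passed 1.5-fold.

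Spindle checkpoint genes were divided. Mad2l1, whose protein sequesters the APC/C activator Cdc20, had 196 in MatDup.dist7 cells and 122 in PatDup.dist7 cells (0.62). Bub1b, which encodes the checkpoint protein BubR1, had 144 in MatDup.dist7 cells and 107 in PatDup.dist7 cells (0.38). Bub3, a binding partner of BubR1, had 1372 in MatDup.dist7 cells and 1232 in PatDup.dist7 cells (0.15). The checkpoint kinase genes went the other way. Ttk, which encodes Mps1, had 44.5 in MatDup.dist7 cells and 85.0 in PatDup.dist7 cells (-0.74), and Bub1 had 32.3 in MatDup.dist7 cells and 51.2 in PatDup.dist7 cells (-0.48). The median of the 5 genes was 0.15, with Mad2l1 and Ttk past 1.5-fold in opposite directions; with each array centred Mad2l1 was within 1.5-fold.

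The chromosomal passenger complex, which corrects faulty microtubule attachments, showed the same kind of division among its subunits. Its survivin subunit, Birc5, had 127 in MatDup.dist7 cells and 89.4 in PatDup.dist7 cells (0.44), the same direction as its kinase Aurkb. Incenp, the scaffold, had 51.2 in MatDup.dist7 cells and 79.9 in PatDup.dist7 cells (-0.51). Cdca8, which encodes borealin, had 26.1 in MatDup.dist7 cells and 76.0 in PatDup.dist7 cells (-1.13) and was more than 2-fold higher in PatDup.dist7. Without Aurkb, the median of the complex was -0.51, the lowest of the 13 role groups, and it rests on 3 genes.

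Kinetochore genes were higher in MatDup.dist7 in 6 of 7 cases, with a median of 0.40 and with 3 genes past 1.5-fold. The median was 0.64 over the 5 genes above the signal filter and 0.24 with a pseudocount of 64, and 2 genes passed 1.5-fold after quantile normalisation or centring, without Nuf2. Cenpf, a large protein of the outer kinetochore, had 109 in MatDup.dist7 cells and 35.9 in PatDup.dist7 cells, the highest difference of the set (1.27). The Ndc80 complex, which grips the microtubule end, is built of the products of Ndc80, Nuf2, Spc24 and Spc25. Ndc80 had 155 in MatDup.dist7 cells and 82.9 in PatDup.dist7 cells (0.79). Nuf2 had 88.5 in MatDup.dist7 cells and 51.0 in PatDup.dist7 cells (0.64), and Spc25 had 41.9 in MatDup.dist7 cells and 27.9 in PatDup.dist7 cells (0.40). Spc24, the remaining subunit, had 88.8 in MatDup.dist7 cells and 133 in PatDup.dist7 cells (-0.50), so transcripts of 1 complex did not differ in 1 direction. Cenpa, the histone variant of the centromere, had 269 in MatDup.dist7 cells and 219 in PatDup.dist7 cells (0.28), and Cenpe, a kinetochore motor, had 17.7 in MatDup.dist7 cells and 15.2 in PatDup.dist7 cells (0.11), both arrays being low for this gene.

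Kinesin motors were higher in MatDup.dist7 in 5 of 6 cases, with a median of 0.63. Kif23, a motor of the central spindle, had 92.5 in MatDup.dist7 cells and 29.9 in PatDup.dist7 cells (1.24). Kif20a, another central spindle motor, had 108 in MatDup.dist7 cells and 62.9 in PatDup.dist7 cells (0.65). Kif2c, which takes microtubule ends apart at the centromere, had 115 in MatDup.dist7 cells and 67.3 in PatDup.dist7 cells (0.65). These 3 genes and Kif11 passed 1.5-fold. Kif11, the motor that pushes the spindle poles apart, had 99.0 in MatDup.dist7 cells and 59.4 in PatDup.dist7 cells (0.61). Kif4, an X-linked motor of chromosome arms, had 69.2 in MatDup.dist7 cells and 49.6 in PatDup.dist7 cells (0.38). Kif18a, which limits chromosome oscillation, was listed at 0.00184 in MatDup.dist7 cells and 20.02 in PatDup.dist7 cells (-1.17), and both values were low. A value this near 0 comes from 1 probe set and does not show that the transcript is missing. With values floored at percentile 25 the difference of Kif18a was 0. With quantile normalisation Kif23 was the only motor past 1.5-fold toward MatDup.dist7, and with centring 3 motors were.

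Among the other proteins of the spindle, 3 of 4 genes were higher in MatDup.dist7, with a median of 0.60. The median was 0.08 over the 2 genes above the signal filter, Tpx2 and Nusap1, which differed in opposite directions. Hmmr, a microtubule-binding protein of the spindle poles, had 50.5 in MatDup.dist7 cells and 11.7 in PatDup.dist7 cells (1.26) and lay under the signal filter. Tpx2, which activates Aurora A on the spindle, had 228 in MatDup.dist7 cells and 119 in PatDup.dist7 cells (0.85), so both it and its kinase were past 1.5-fold. Prc1, which bundles microtubules of the central spindle, had 50.5 in MatDup.dist7 cells and 36.6 in PatDup.dist7 cells (0.34). Nusap1, another microtubule-bundling protein, had 110 in MatDup.dist7 cells and 188 in PatDup.dist7 cells (-0.70).

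The cytokinesis genes were all higher in MatDup.dist7. Racgap1, which with Kif23 forms the centralspindlin complex, had 261 in MatDup.dist7 cells and 139 in PatDup.dist7 cells (0.84). Ect2, the exchange factor that this complex recruits to activate RhoA, had 131 in MatDup.dist7 cells and 86.2 in PatDup.dist7 cells (0.52). Anln, which encodes the contractile ring scaffold anillin, had 133 in MatDup.dist7 cells and 84.7 in PatDup.dist7 cells (0.56). Racgap1 passed 1.5-fold, while Ect2 and Anln did not.

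Genes of anaphase onset were higher in MatDup.dist7 in 5 of 5 cases, with a median of 0.51. Espl1, which encodes separase, the protease that cuts cohesin, had 354 in MatDup.dist7 cells and 145 in PatDup.dist7 cells (1.20). Pttg1, which encodes its inhibitor securin, had 36.2 in MatDup.dist7 cells and 7.10 in PatDup.dist7 cells (1.18) and lay under the signal filter. Pttg1 was within 2-fold once values were floored at percentile 25 (0.72) or given a pseudocount of 64 (0.49), while Espl1 stayed past 2-fold in both. Ube2c, the ubiquitin-conjugating enzyme of the APC/C, had 341 in MatDup.dist7 cells and 235 in PatDup.dist7 cells (0.51). Cdc20, its activator in early mitosis, had 199.96 in MatDup.dist7 cells and 137 in PatDup.dist7 cells (0.50), and Fzr1, its activator Cdh1 of late mitosis and G1, had 455 in MatDup.dist7 cells and 375 in PatDup.dist7 cells (0.27).

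Condensin, which compacts the chromosomes, was divided, with 2 of 5 genes higher in MatDup.dist7. Ncapd2, a regulatory subunit, had 258 in MatDup.dist7 cells and 144 in PatDup.dist7 cells (0.77), and Ncapg had 108 in MatDup.dist7 cells and 89.5 in PatDup.dist7 cells (0.23). The core subunits Smc2 (28.4 in MatDup.dist7 cells and 40.4 in PatDup.dist7 cells, -0.35) and Smc4 (114 in MatDup.dist7 cells and 129 in PatDup.dist7 cells, -0.15) were lower in MatDup.dist7. Ncaph, the subunit that closes the ring, had 43.4 in MatDup.dist7 cells and 51.7 in PatDup.dist7 cells (-0.19). The median of the 5 genes was -0.15, and it was 0.23 when genes under the signal filter, here Smc2 and Ncaph, were left out.

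**Figure D2:**
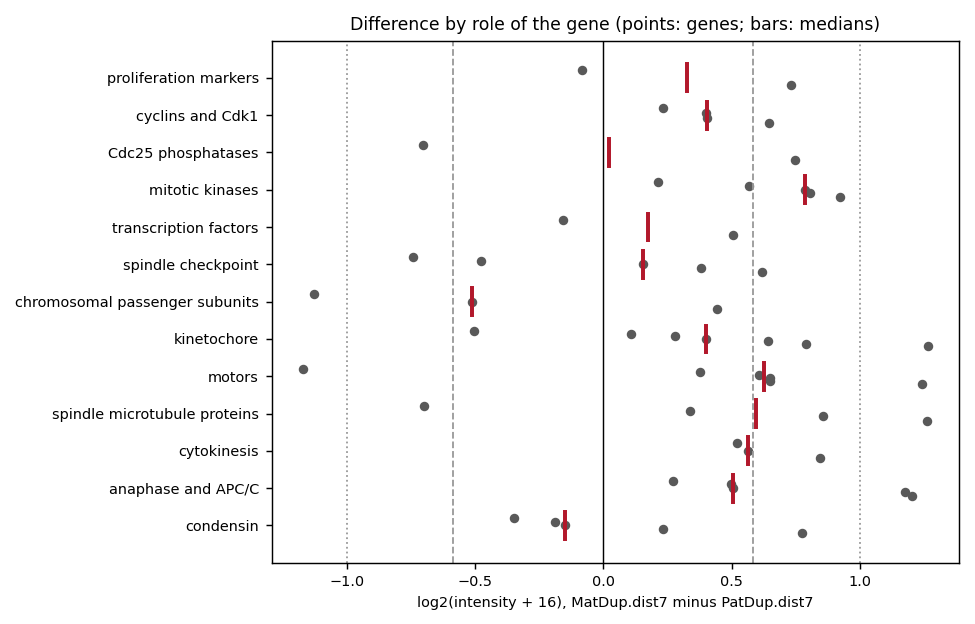
Difference in log2(intensity + 16), MatDup.dist7 minus PatDup.dist7 (horizontal axis), of each of the 53 genes (grey points) by role, with the median of the role (red bar); dashed lines mark 1.5-fold and dotted lines 2-fold. The medians of 11 of the 13 roles lie above 0. The mitotic kinases are highest at 0.79 and the chromosomal passenger subunits lowest at -0.51. The kinase genes Ttk and Bub1 are drawn with the spindle checkpoint, and Cdk1 with the cyclins.

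The genes at least 2-fold apart depended on how low signals were treated. With a pseudocount of 64, 9 genes passed 1.5-fold with MatDup.dist7 higher, 1 passed it with PatDup.dist7 higher, and 1 was at least 2-fold apart. At that setting 5.07% of the genes above the filter passed 1.5-fold toward MatDup.dist7 and 4.95% toward PatDup.dist7. The counts of the set include genes under the filter, and these shares do not. Of the 53 genes, 42 lay above the signal filter and 11 under it, and of the 7 genes past 2-fold, Hmmr, Pttg1 and Kif18a were under it. The spread of the differences over all genes was wider at low levels. Its standard deviation was 0.70 for 4509 genes with a mean log2 level of 5 to 6, 0.51 for 3910 genes at 7 to 8 and 0.42 for 2546 genes at 8 to 9. In the first of these bands 6 of 10 genes of the set were higher in MatDup.dist7 (median 0.22), in the second 10 of 12 (0.56), and in the third 7 of 7 (0.51), while the medians of all genes there were 0.11, 0.02 and -0.06. At levels of 6 to 7 the standard deviation was 0.58, and 16 of 22 genes of the set were higher in MatDup.dist7 (median 0.48). The bands at either end held 1 gene of the set each, Kif18a at 4 to 5 (-1.17) and Bub3 at 9 or more (0.15). In that top band the standard deviation was lowest, at 0.34. The excess in MatDup.dist7 was therefore present among genes with levels of 7 to 9, where the arrays differed less than at lower levels. Probe sets of the same gene gave a further measure of error, with a standard deviation of 0.40 between their differences (1722 probe sets of 642 genes above the filter), and 36 of the 53 genes (67.9%) differed by more than this, against 47.2% of all genes and 43.2% of those above the filter. It holds no variation between cultures.

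**Figure D3:**
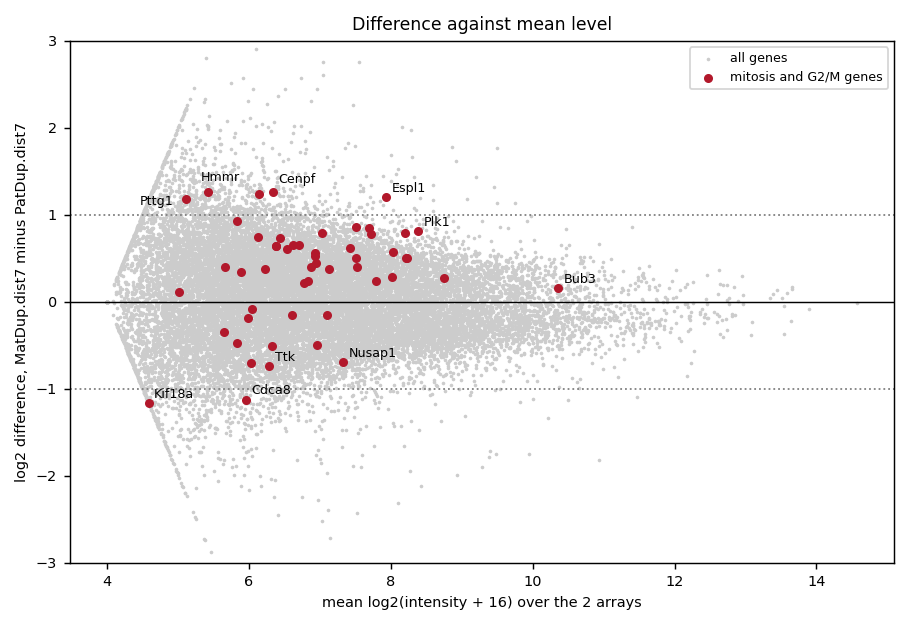
Difference in log2(intensity + 16), MatDup.dist7 minus PatDup.dist7 (vertical axis), against the mean log2 level of the arrays (horizontal axis) for all genes (grey) and the 53 mitosis and G2/M genes (red); dotted lines mark 2-fold, and 8 genes beyond the vertical limits of 3 are not drawn. The cloud narrows to the right, and all 7 red points between levels of 8 and 9, Plk1 among them, lie above 0.

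Other genes of mitosis, outside the 55, leaned the same way by less. Of 106 listed, 103 were measured, with a median difference of 0.19, and 64 (62.1%) were higher in MatDup.dist7, against 51.4% of all genes. Past 1.5-fold were 23 genes higher in MatDup.dist7 and 7 higher in PatDup.dist7 as deposited, 20 and 11 after quantile normalisation, and 21 and 11 with each array centred. The deposited counts are 22.3% and 6.8% of the list, against 15.5% and 12.5% of all genes. Of the genes above the filter, 10.7% passed toward MatDup.dist7 and 11.8% toward PatDup.dist7 after quantile normalisation, and 10.1% and 13.4% with centring. These shares are not like for like with the rescaled counts, since only 71 of the 103 genes lay above the filter. As deposited, fewer genes above the filter than of all genes passed toward MatDup.dist7 (12.2%, against 15.5%). Among regulators of entry, Pbk, a mitotic kinase gene, had 55.8 in MatDup.dist7 cells and 8.23 in PatDup.dist7 cells (1.57), both under the filter. Bora, an activator of Plk1 phosphorylation, had 77.8 in MatDup.dist7 cells and 29.9 in PatDup.dist7 cells (1.03), and Pkmyt1 and Haspin, a Cdk1-inhibiting and a histone H3 kinase gene, differed by 0.87 and 0.81. Gtse1 was lower in MatDup.dist7 (186, against 290 in PatDup.dist7, -0.60). Of these 12 regulators 5 (41.7%) passed 1.5-fold toward MatDup.dist7 and 1 (8.33%) toward PatDup.dist7, and 5 and 2 after either rescaling.

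Centromere and kinetochore genes of this second list had a median of 0.17 over 28 genes, of which 11 lay above the signal filter. Past 1.5-fold were 5 genes (17.9%) toward MatDup.dist7 and 3 (10.7%) toward PatDup.dist7. Both shares were near the background of 15.5% and 12.5% of all genes. Cenpq (1.37), Cenph (0.79), Cenpi (0.75) and Cenpk (0.73), subunits of the inner kinetochore network, were higher in MatDup.dist7. Dsn1 (-0.83), of the Mis12 complex, Mis18a (-0.82), a loading factor for Cenpa, and Cenpp (-0.63) were lower. Sgo1, which encodes the shugoshin that protects centromeric cohesion, differed by 0.62. Of these genes Cenpq, Cenph and Cenpp lay under the signal filter, and Cenpp was at 2.75 in MatDup.dist7 cells and 13.0 in PatDup.dist7 cells.

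Motors and spindle proteins outside the set had a median of 0.43 over 22 genes. Of these, 6 (27.3%) passed 1.5-fold toward MatDup.dist7 and 2 (9.09%) toward PatDup.dist7, against 15.5% and 12.5% of all genes. The counts were 5 and 4 after quantile normalisation and 6 and 4 with centring. Aspm, a spindle pole protein gene, was listed at 38.8 in MatDup.dist7 cells and 0.00374 in PatDup.dist7 cells, under the signal filter on both arrays, and its difference of 1.77 depends on the pseudocount. Ckap2 differed by 1.06 and the motor Kif20b by 0.77, both under the filter. Haus5, of the augmin complex that nucleates spindle microtubules, had a mean difference of 1.16 from probe sets that disagreed, at 2.14 and 0.17. The augmin subunits Haus7 (-0.71) and Haus6 (-0.65) were lower in MatDup.dist7. Of the remaining groups, Arhgap11a differed by 0.67, Cdca3 by 0.79, Troap by 0.76, the condensin II subunit Ncapg2 by 0.94, the cohesion factor Cdca5 by 0.86 and the condensin II subunit Ncapd3 by -1.27. Cdca3 and Ncapg2 lay under the filter. The APC/C group of 14 genes, most of which encode core subunits, had a median of -0.10 with 1 gene past 1.5-fold (7.14%). This was Fbxo5, which encodes the APC/C inhibitor Emi1 (0.63, under the filter). After quantile normalisation or centring no gene of this group passed 1.5-fold toward MatDup.dist7 and 1 passed it toward PatDup.dist7.

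Genes of the preceding stage of the cycle, G1/S and DNA replication, had a median of 0.16 over 49 genes. Of these, 31 (63.3%) were higher in MatDup.dist7, against 51.4% of all genes and 62.1% of the other mitosis list. Past 1.5-fold were 7 genes toward MatDup.dist7 and 3 toward PatDup.dist7 as deposited, 6 and 4 after quantile normalisation, and 5 and 5 with each array centred. The deposited counts are 14.3% and 6.12% of the list, against 15.5% and 12.5% of all genes. The share toward MatDup.dist7 was thus near the background, and the share toward PatDup.dist7 was under it. Uhrf1, the maintenance methylation cofactor, had 122 in MatDup.dist7 cells and 35.4 in PatDup.dist7 cells (1.42), followed by Gins3 (1.17), Prim1 (0.88) and Pole (0.87). Gins3 and Prim1 lay under the filter. Mcm10 (-0.73), Gmnn (-0.69), which encodes the replication inhibitor geminin, and Cdk6 (-0.61) were lower. Subunits of the MuvB complex and its E2F and pocket protein partners had a median of -0.11 over 11 genes, with E2f7 (0.87) and E2f8 (-0.86, under the filter) past 1.5-fold. Whether the median of the 53 genes and that of the G1/S list differ could not be tested with 1 array per genotype.

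**Figure D4:**
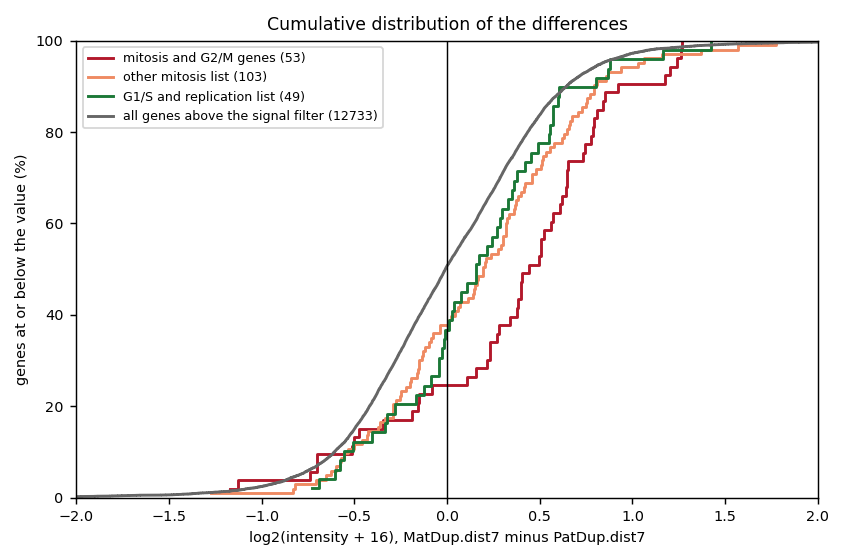
Share of genes (vertical axis, percent) at or below each difference in log2(intensity + 16), MatDup.dist7 minus PatDup.dist7 (horizontal axis, drawn from -2 to 2), for the 53 mitosis and G2/M genes (red), the other mitosis list (orange), the G1/S and replication list (green) and all genes above the signal filter (grey). The red curve runs to the right of the others over most of its length, with medians of 0.44, 0.19, 0.16 and -0.01 in that order.

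Several other measures differed between the arrays alongside the mitosis genes. Cdkn1c, the CDK inhibitor expressed from the maternal copy of distal chromosome 7, was at 1109 in MatDup.dist7 cells and 0.0132 in PatDup.dist7 cells, and the paternally expressed growth factor Igf2 was at 7.48 in MatDup.dist7 cells and 1013 in PatDup.dist7 cells, which fits the labels of the arrays. Of the other CDK inhibitors measured, Cdkn2b (-1.82) and Cdkn2a (-0.61) were lower in MatDup.dist7, and Cdkn1b (0.54), Cdkn2d (0.38) and Cdkn2c (0.14) were within 1.5-fold. The Y-linked Eif2s3y, Uty and Kdm5d were higher in MatDup.dist7 (2.51, 2.33 and 1.83) and Xist was lower (-2.74). Xist was at 0.00166 in MatDup.dist7 cells and 91.2 in PatDup.dist7 cells, and Eif2s3y was at 112 and 6.44. By these transcripts the MatDup.dist7 culture was male, and the PatDup.dist7 culture was mostly or wholly female. For the mitosis genes, a difference by sex and a difference by genotype therefore cannot be told apart. Of 11 fibroblast markers 3 were higher in MatDup.dist7, their intensities summing to 41750 in MatDup.dist7 cells and 48188 in PatDup.dist7 cells, with Vim, Fn1, Col1a1 and Col1a2 high on both arrays. Of the markers of other cell types, the signal filter was passed by 10 of 10 for macrophages, 5 of 7 for epithelium, 5 of 6 for neural cells, 4 of 6 for skeletal muscle, 1 of 6 for endothelium and 0 of 2 for erythroid cells. The 10 macrophage markers summed to 5767 in MatDup.dist7 cells and 6587 in PatDup.dist7 cells (3 higher in MatDup.dist7), and the 7 epithelial markers to 785 in MatDup.dist7 cells and 445 in PatDup.dist7 cells (6 higher). The 6 endothelial markers summed to 305 in MatDup.dist7 cells and 356 in PatDup.dist7 cells (2 higher), and the 6 neural markers to 1380 in MatDup.dist7 cells and 1255 in PatDup.dist7 cells (2 higher). The 6 skeletal muscle markers summed to 2572 in MatDup.dist7 cells and 2241 in PatDup.dist7 cells (2 higher), and the 2 measured erythroid markers to 100.1 in MatDup.dist7 cells and 88.2 in PatDup.dist7 cells (both higher, 1 after quantile normalisation). Most epithelial markers were thus higher in MatDup.dist7 (85.7%, against 51.4% of all genes), as most mitosis genes were. Of the epithelial markers, Krt19 was at 152 in MatDup.dist7 cells and 18.8 in PatDup.dist7 cells. Lower in MatDup.dist7 were 72.7% of the fibroblast and 70% of the macrophage markers, against 48.6% of all genes. The share was 66.7% for the endothelial, the neural and the skeletal muscle markers. That is 4 of 6 in each list, so little can be read from it. No marker was under 1 on both arrays. The part of these measures in the differences of the mitosis genes was not tested.

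On chromosome 7, which carries the duplicated segment, lie 4 genes of the set. In the order of the 1738 measured genes along this chromosome, Prc1 stands at place 856, Plk1 at 1397, Bub3 at 1543 and Mki67 at 1572, before Igf2 at 1699 and Cdkn1c at 1711. Where the segment begins was not known here, so none of them was assigned to it. Their differences were 0.34, 0.81, 0.15 and -0.08, with a median of 0.25. None was past 1.5-fold except Plk1, and the copy number of the segment is the same in both genotypes.

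Differences were also set beside the promoter letters, without a test. The 29 measured genes with both CCAAT and CHR letters in a window had a median difference of 0.50, with 24 higher in MatDup.dist7. The 9 measured genes with neither also had a median of 0.50, with 6 higher. The 3 genes with CCAAT letters alone had 0.21 and the 3 with CHR letters alone 0.65. Among the sequences shown above, Cdca8, with 4 CCAAT matches and 1 CHR match, had a difference of -1.13, and Hmmr, with 5 and 1, had 1.26.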

How the data were processed

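Expression was measured in total RNA of 1 MatDup.dist7 and 1 PatDup.dist7 MEF culture. The authors deposited linear intensity values, 1 for each probe set of an array. Affymetrix Expression Console was used, per the submitters' processing notes, with its background, summarisation and normalisation steps not given in the sources used here. Of 35557 probe sets, 21789 had 1 gene symbol in the platform annotation, 1621 several and 12147 none, and those with 1 symbol were used. Gene identifiers of 21698 were found in the RefSeq gene table (GRCm38.p6), which gave current symbols and chromosomes. Levels were log2(intensity + 16), computed from the deposited values, and probe sets of a gene were averaged. The median intensity was 68.6 in MatDup.dist7 and 64.2 in PatDup.dist7. With 1 array per genotype nothing could be tested and no p-value is given; precision is limited by this number of arrays. A gene was called at 1.5-fold or 2-fold. Calculations used Python 3.11.15 with pandas 2.3.3 and were tested on simulated arrays. The genes, lists and rules were chosen with earlier results of these data known. Every gene of the set is named; from the other mitosis, G1/S and MuvB lists up to 4 genes past 1.5-fold in each direction are named.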

Additional observations from a re-analysis of the deposited data

How the results depend on the processing

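The 9 alternatives were pseudocounts of 1 and 64, a floor set at percentile 25, quantile normalisation, centring, the signal filter applied to the lists, the highest probe set of a gene, dropping X- and Y-linked genes and, chosen after seeing the data, leaving out probe sets under 1. None of the 53 genes took the opposite sign under any of them, though Cenpe and Kif18a, the lowest of the set as reported (-1.17), were at 0 with the floor. For a gene read by 1 probe set, only quantile normalisation and centring could have reversed the sign. The other alternatives keep the order of its values or drop the gene, so their kept signs carry no information. The median of the set lay between 0.32 (pseudocount of 64) and 0.53, against 0.44 as reported. Medians were read as moved beyond 0.1 and counts beyond 1.5 times, so the median of the set moved with a pseudocount of 64. At that setting the medians of the motors (0.42), mitotic kinases (0.50), cyclins and Cdk1 (0.30), cytokinesis genes (0.40) and chromosomal passenger subunits (-0.32) moved too. With a pseudocount of 64, 9 genes of the set passed 1.5-fold toward MatDup.dist7 (20 as reported), 1 toward PatDup.dist7 (5) and 1 was at least 2-fold apart (7); of the other mitosis genes 6 (23) and 1 (7) were past 1.5-fold higher in MatDup.dist7 and PatDup.dist7. A larger pseudocount damps every difference by construction. With the signal filter 4 genes of the set were at least 2-fold apart, 13 other mitosis genes passed 1.5-fold toward MatDup.dist7, the median of the spindle microtubule proteins was 0.08 (0.60 as reported), that of the kinetochore genes 0.64 (0.40), and the condensin median reversed to 0.23, since fewer genes remained. The other mitosis genes at least 1.5-fold higher in PatDup.dist7 numbered 12 with a pseudocount of 1, and 11 with the floor, with quantile normalisation and with centring; the cause was not tested. No paired analysis was possible because each genotype has 1 array.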
